A study of Homo sapiens with 18 samples.

Results

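Glycolytic enzymes were followed through 18 libraries as 10 transcripts, chosen by Ensembl transcript ID from a list that paired each ID with an enzyme and its protein length. All 10 were among the 98334 transcript entries of the mRNA tables, and 9 were among the 26679 entries of the ribosome footprint tables. PKM, the transcript of pyruvate kinase (ENST00000335181), had an mRNA row and no footprint row. The length listed for each transcript was its protein length less 20 codons in the footprint tables and less 19 in the mRNA tables, for every member, so none was dropped. The footprint members were HK2 (ENST00000290573), GPI (ENST00000356487), TPI1 (ENST00000396705), GAPDH (ENST00000229239), PGK1 (ENST00000373316), PGAM1 (ENST00000334828), ENO1 (ENST00000234590), LDHA (ENST00000422447) and LDHB (ENST00000350669). No table used here paired the transcript IDs with gene symbols, so the names rest on that list and on the match of lengths.

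The cells were HEK293, a human embryonic kidney line, grown in DMEM with 10% FBS. UFM1-KO was a clonal HEK293 line edited with Cas9 and a guide to UFM1, a small ubiquitin-like protein that is joined to ribosomal protein RPL26 and other targets. UFSP2-KO was a clonal line edited with a guide to UFSP2, a protease that detaches UFM1. WT was the unedited line. Each line had 2 membrane footprint libraries, 2 cytosol footprint libraries and 2 whole-cell mRNA libraries, lettered a and b, which makes 9 groups. Each knockout was 1 clone, so the knockout and the clone cannot be told apart, and the labels do not call the replicates separate cultures, so p-values measure the spread between these libraries, which may be technical. UFM1, UFSP2 and markers of the fractions were not looked up here. A fraction was measured in bulk, so fewer cells with a transcript and less of it per cell cannot be told apart.

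Glycolysis breaks glucose down to pyruvate in the cytosol, and lactate dehydrogenase turns pyruvate into lactate. The enzymes act in sequence as soluble proteins made on free ribosomes, and hexokinase 2 also docks on the outer membrane of mitochondria. Proliferating cultured cells express most of these enzymes at high levels.

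The footprint libraries held 1393032 to 11388755 counts and the mRNA libraries 37451244 to 68675420 counts. Transcript entries with identical counts were merged into distinct features, of which 11065 footprint features and 13890 mRNA features passed a filter on low counts. All 9 footprint members and all 10 mRNA members passed it. GAPDH shared its counts with other entries, 3 entries in all, LDHA likewise with 3, and LDHB with 2. Levels are given as CPM, the unit in which edgeR expresses counts relative to a library's TMM-scaled total, and levels of different enzymes are compared only as CPM per 100 codons. Processed pseudogenes of GAPDH, LDHA, PGK1, TPI1, ENO1 and PGAM1 are near copies that could have taken or given reads, and the values of these 6 enzymes are uncertain to that extent.

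In every line GAPDH and ENO1 had the highest levels per codon of the 9 enzymes, and HK2 had by far the lowest. In UFM1-KO membrane footprints GAPDH, which oxidises glyceraldehyde phosphate, stood at 2338 CPM per 100 codons and ranked 6th of 11065 features. In UFSP2-KO membrane footprints it stood at 1759 and ranked 16th, and in WT membrane footprints at 2147 and ranked 11th. ENO1, the enolase that yields phosphoenolpyruvate, ranked 17th, 57th and 26th in the membrane footprints of UFM1-KO, UFSP2-KO and WT. HK2, which phosphorylates glucose on entry, ranked 6124th, 5198th and 5788th in UFM1-KO, UFSP2-KO and WT, near the middle of all features. The other 6 footprint members lay between rank 93 and rank 451 in the membrane fraction of the 3 lines.

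In WT cytosol footprints the order per codon was GAPDH at 2753 CPM per 100 codons, ENO1 at 1535, TPI1 at 749 and LDHB at 617.5, followed by PGAM1 at 494.8, GPI at 337.2, LDHA at 330.2, PGK1 at 270 and HK2 at 3.93. Library by library, GPI had 290.7 and 383.8 CPM per 100 codons in WT cytosol libraries a and b, LDHA 267.1 and 393.3, and PGK1 242.1 and 298. These 3 neighbours overlapped between libraries, as did TPI1 with LDHB, whose WT cytosol values were 496.8 and 738.3. GAPDH and ENO1 were set apart from the rest in both libraries. PKM could be placed only in mRNA, where it had 285.8 CPM per 100 codons in WT and ranked 198th of 13890 features.

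Summed over the 9 enzymes, the share of footprint counts was lowest in UFSP2-KO. Shares were taken over the counts left in distinct features after merging, 919295 to 7657808 per footprint library, not over the library totals given above. Membrane libraries a and b gave 2.17% and 2.25% in UFM1-KO, against 1.38% and 1.37% in UFSP2-KO and 2.02% and 2.01% in WT. Cytosol libraries gave 2.86% and 2.92% in UFM1-KO, against 1.77% and 1.86% in UFSP2-KO and 2.44% and 2.52% in WT. In these shares, taken without TMM scaling, both UFSP2-KO libraries were below both libraries of each other line in both fractions. Both UFM1-KO libraries were above both WT libraries in each fraction. Over the library totals before merging, the membrane shares were 1.48% and 1.52% in UFM1-KO, against 0.923% and 0.909% in UFSP2-KO and 1.36% and 1.35% in WT, which is the same order. TMM factors were 1.151 and 1.133 in UFM1-KO cytosol, against 1.092 and 1.003 in WT cytosol. In CPM summed over the 9 enzymes, UFM1-KO overlapped WT in the cytosol and stayed above it in the membrane fraction. UFSP2-KO stayed the lowest in both fractions in summed CPM. Exact binomial (Clopper-Pearson) 95% intervals were narrow, 2.41% to 2.47% for the shallowest library, WT cytosol a, and cover counting error only. The sum follows GAPDH and ENO1, which made up 60.5% to 65.8% of it in footprints. Over the other 7 enzymes the membrane share was 0.768% and 0.786% in UFM1-KO, against 0.486% and 0.505% in UFSP2-KO and 0.729% and 0.788% in WT.

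In mRNA the same 9 transcripts took 1.10% and 1.26% of the counts in distinct features in UFM1-KO, against 0.959% and 0.866% in UFSP2-KO and 1.11% and 1.04% in WT. The UFSP2-KO libraries were again the lowest, and UFM1-KO overlapped WT. That order is one of shares without TMM scaling. TMM factors were 0.926 and 0.977 in UFSP2-KO mRNA and 1.03 and 1.06 in WT mRNA. In CPM summed over the 9 transcripts, UFSP2-KO overlapped WT. Those distinct features were the transcripts matched to the footprint tables, with PKM, and over whole mRNA libraries the shares were 0.401% and 0.461% in UFM1-KO, against 0.347% and 0.314% in UFSP2-KO and 0.404% and 0.381% in WT. No test was run on these shares, and an exact permutation of 2 libraries against 2 cannot give a p below 0.333.

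**Figure D1:**
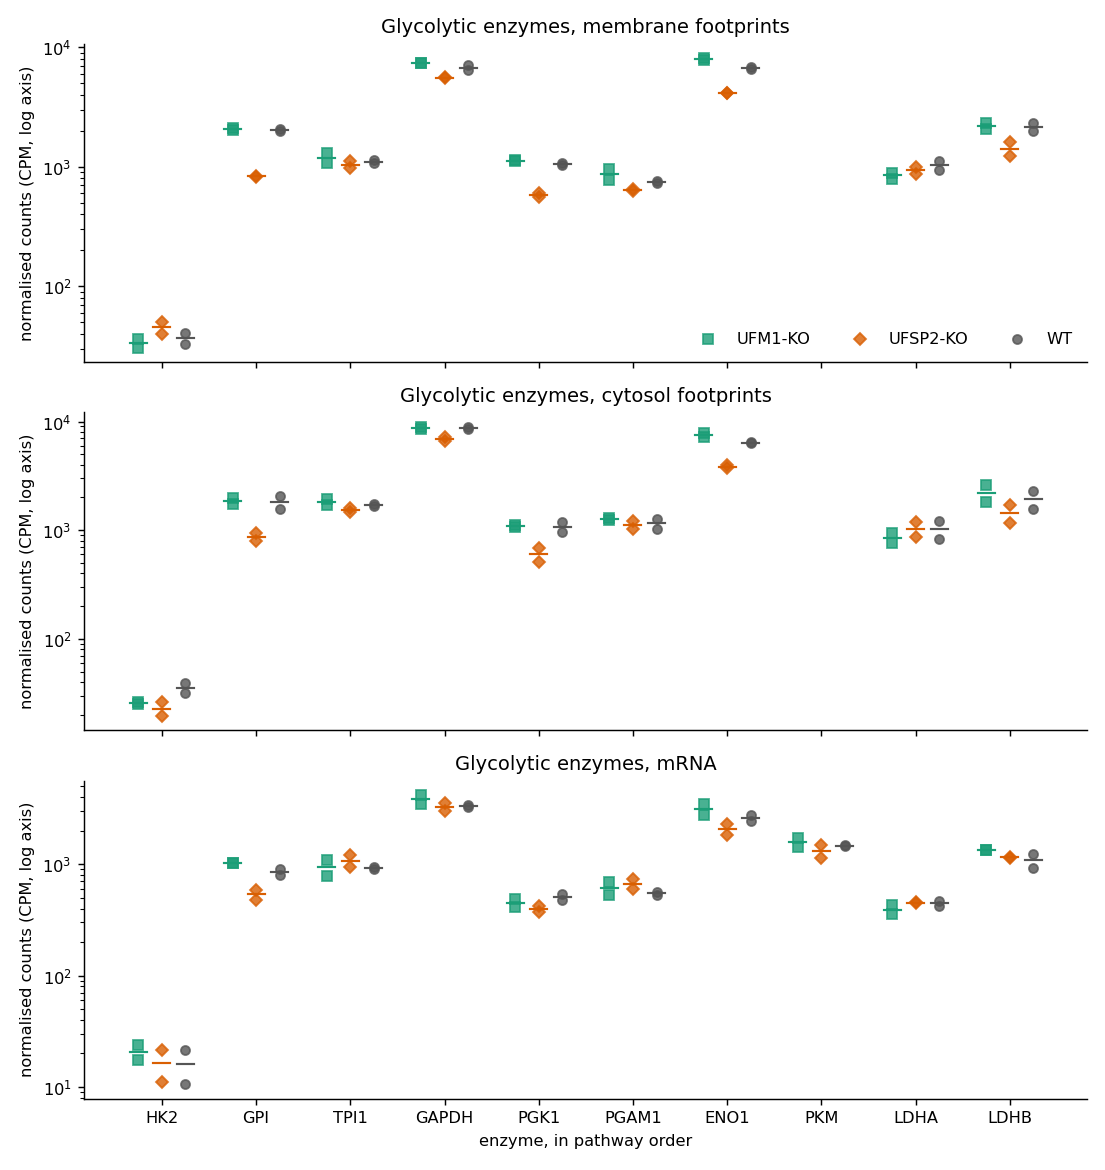
Normalised counts (CPM, log axis) of each glycolytic enzyme, in pathway order, in membrane footprints, cytosol footprints and mRNA. Each symbol is 1 library and each bar the mean of 2, for UFM1-KO, UFSP2-KO and WT from left to right. GPI, PGK1 and ENO1 are lower in both UFSP2-KO libraries than in both WT libraries in all 3 panels, and PKM has mRNA values only.

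UFSP2-KO cells had fewer footprints on GPI, PGK1 and ENO1 in both fractions. GPI fell to 0.411 times, PGK1 to 0.555 times and ENO1 to 0.622 times the WT level in the membrane fraction. In the cytosol GPI fell to 0.477 times, PGK1 to 0.559 times and ENO1 to 0.607 times. Called lower by edgeR's quasi-likelihood test at a Benjamini-Hochberg adjusted p under 0.05 were 3 of 9 members in the membrane fraction, where 5.89% of all features were called lower, and 3 of 9 in the cytosol, where 2.5% were. No member was called higher in either.

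The regulatory sequence upstream of these 3 genes is shown because their footprints fell together. Each line below gives the 250 bases before the transcription start in RefSeq's annotation of GRCh38.p14, 5′ to 3′ on the gene's strand. Any ACGTG, a form of the core of the element that hypoxia-inducible factors bind, is in capitals. Glycolytic genes are known targets of these factors. The window of GPI is chr19:34364742-34364991 on the plus strand, before a start that lies inside the annotated span of the gene, that of PGK1 is chrX:78103998-78104247 on the plus strand, and that of ENO1 is chr1:8878687-8878936 on the minus strand.
GPI: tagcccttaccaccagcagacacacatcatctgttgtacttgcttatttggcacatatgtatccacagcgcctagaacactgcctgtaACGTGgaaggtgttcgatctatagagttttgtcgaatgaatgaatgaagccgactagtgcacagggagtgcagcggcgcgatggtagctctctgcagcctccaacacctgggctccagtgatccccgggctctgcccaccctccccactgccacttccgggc
PGK1: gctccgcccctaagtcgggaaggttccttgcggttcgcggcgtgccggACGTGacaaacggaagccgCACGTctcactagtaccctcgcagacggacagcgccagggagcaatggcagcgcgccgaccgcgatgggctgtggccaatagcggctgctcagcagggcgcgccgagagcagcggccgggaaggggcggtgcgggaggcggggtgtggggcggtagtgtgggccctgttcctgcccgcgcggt
ENO1: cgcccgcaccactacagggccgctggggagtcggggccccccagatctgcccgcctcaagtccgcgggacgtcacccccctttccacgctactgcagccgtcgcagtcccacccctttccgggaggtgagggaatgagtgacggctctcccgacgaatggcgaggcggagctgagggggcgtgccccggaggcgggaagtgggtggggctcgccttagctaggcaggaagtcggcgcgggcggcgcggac
This form of the core was searched on both strands, as ACGTG or CACGT, which overlap where CACGTG occurs. Other forms, such as GCGTG, were not searched and are left in lower case. GPI held 1 match, 162 bases before the start, and PGK1 held 2, at 202 and 183 bases. No match to ACGTG was found in this window of ENO1. The windows of ENO1 and PGK1 do hold GCGTG. Of the windows of all 35116 promoters in the table, 18.5% held at least 1 match. Over the 10 enzymes, which had 13 windows because some genes have several starts, 7 windows in 6 genes held one. Among these genes were GAPDH, HK2, LDHA and TPI1, whose footprints were not called in UFSP2-KO against WT. A match is a description of letters and no evidence of binding.

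GPI, glucose phosphate isomerase, converts glucose phosphate to fructose phosphate, and its gene spans chr19:34359718-34402413 (GRCh38.p14). Its membrane footprints were 831.7 and 826.2 CPM in UFSP2-KO libraries a and b, against 1974 and 2058 CPM in WT. Its cytosol footprints were 794.9 and 937.2 CPM in UFSP2-KO, against 1564 and 2065 CPM in WT. The UFSP2-KO libraries were below the WT libraries in both fractions, with no overlap. The log2 change was −1.28 (SE 0.184, edgeR adjusted p = 3.24e-05) in the membrane fraction and −1.07 (SE 0.184, edgeR adjusted p = 0.000828) in the cytosol. Both calls held under all 11 alternative settings, each library left out included.

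PGK1, phosphoglycerate kinase, makes ATP in the step after GAPDH, and its gene lies on the X chromosome (chrX:78104248-78129295). In the membrane fraction it had 599.4 and 561.3 CPM in UFSP2-KO, against 1026 and 1067 CPM in WT. In the cytosol it had 514.5 and 681.1 CPM in UFSP2-KO, against 961.3 and 1183 CPM in WT. Groups did not overlap in either fraction. The log2 change was −0.85 (SE 0.189, edgeR adjusted p = 0.00378) in the membrane fraction and −0.84 (SE 0.190, edgeR adjusted p = 0.0104) in the cytosol. The membrane call was lost without UFSP2-KO membrane library b or without WT membrane library b, with edgeR adjusted p-values up to 0.0765. The cytosol call was lost when UFSP2-KO library a or WT library b of that fraction was left out, with adjusted p-values up to 0.11.

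ENO1 (chr1:8861000-8878686) had 4177 and 4163 CPM in UFSP2-KO membrane footprints, against 6796 and 6608 CPM in WT. In the cytosol it had 3718 and 3991 CPM in UFSP2-KO, against 6282 and 6431 CPM in WT. Replicates were close together and the groups were far apart. The log2 change was −0.68 (SE 0.152, edgeR adjusted p = 0.00385) in the membrane fraction and −0.72 (SE 0.153, edgeR adjusted p = 0.00656) in the cytosol. Without UFSP2-KO membrane library b the membrane call was lost, at an adjusted p of 0.0536, while the cytosol call held under all 11 settings.

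The other 6 footprint members were not called in either fraction. LDHB, the lactate dehydrogenase subunit of heart and other oxidative tissues, came nearest in the membrane fraction. It had 1224 and 1599 CPM in UFSP2-KO membrane footprints, against 1996 and 2324 CPM in WT, a log2 change of −0.61 (SE 0.220, edgeR adjusted p = 0.0716). It was called in 4 of 11 alternatives, with library size alone, with no filter on low counts, with the replicate letter as a block (edgeR adjusted p = 0.0021) and in a fit of these groups alone, and the p-values of all 11 ran up to 0.414. Its groups did not overlap in the membrane fraction. In the cytosol LDHB had 1167 and 1708 CPM in UFSP2-KO, against 1560 and 2318 CPM in WT, and the groups overlapped.

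GAPDH had 5592 and 5490 CPM in UFSP2-KO membrane footprints, against 7051 and 6479 CPM in WT, a log2 change of −0.29 (SE 0.151, edgeR adjusted p = 0.23). Its cytosol values were 6569 and 7265 CPM in UFSP2-KO, against 8445 and 8902 CPM in WT, with a log2 change of −0.33 (adjusted p = 0.236 by edgeR). Both pairs were apart without overlap, short of the threshold. Log2 changes of TPI1, triose phosphate isomerase, were −0.08 and −0.16 in the membrane fraction and the cytosol, and those of PGAM1, phosphoglycerate mutase, −0.22 and −0.05.

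LDHA, the lactate dehydrogenase subunit typical of skeletal muscle, showed a log2 change of −0.14 for membrane footprints and of −0.00063 for cytosol footprints. The 95% interval in the cytosol was −0.432 to 0.431, so changes within that range, in either direction, are compatible with these values. HK2 had 39.8 and 50.5 CPM in UFSP2-KO membrane footprints, against 40.5 and 32.5 CPM in WT, and 19.5 and 26.1 CPM in UFSP2-KO cytosol footprints, against 39.0 and 31.5 CPM in WT. Its footprint counts ran from 22 to 233 per library, far fewer than those of the other members.

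Both UFSP2-KO libraries were below both WT libraries for 6 of 9 members in the membrane fraction, where this held for 29% of all features, and for 6 of 9 in the cytosol, where it held for 22.6%. Members had a median log2 change of −0.29 for membrane footprints and of −0.43 for cytosol footprints, against medians of 0.01 and 0.02 over all features. The fitted change was negative for 8 of 9 members in the membrane fraction, HK2 being the exception, and for 9 of 9 in the cytosol, where LDHA turned positive under both other scalings and PGAM1 under RLE.

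**Figure D2:**
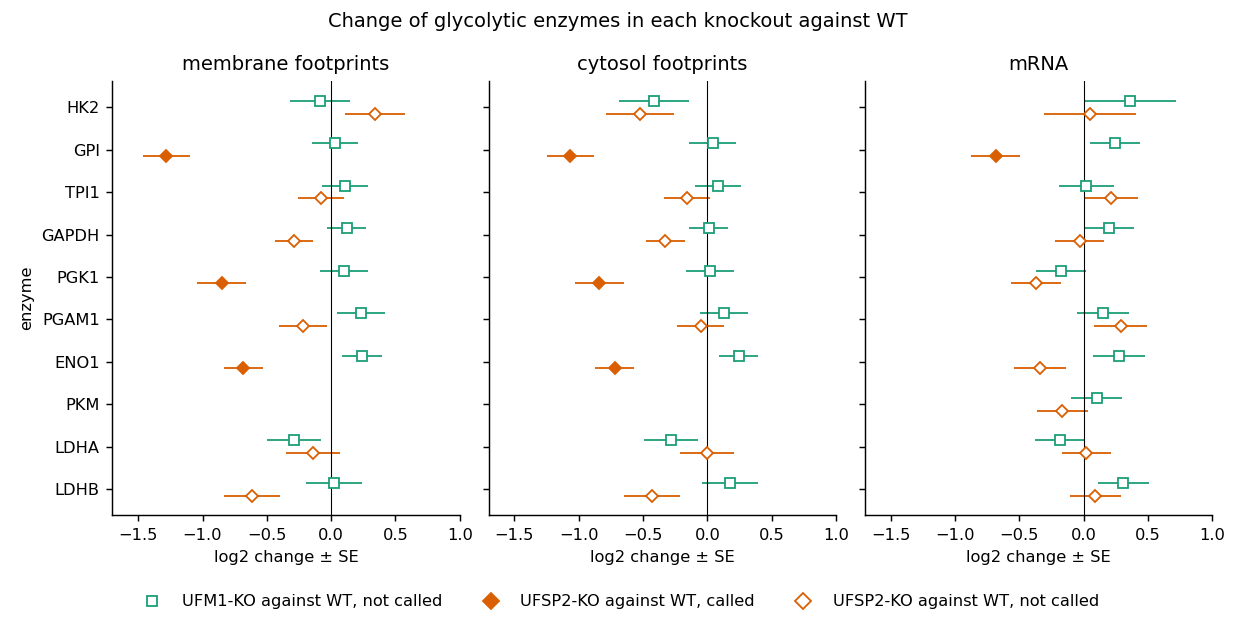
Log2 change of each enzyme in UFM1-KO and UFSP2-KO against WT, in membrane footprints, cytosol footprints and mRNA, with bars of 1 standard error. Filled symbols passed edgeR's adjusted p under 0.05. GPI at −1.28 in the membrane fraction is the lowest point, GPI is the only enzyme filled in the mRNA panel, and no UFM1-KO symbol is filled.

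UFM1-KO cells showed no called footprint change in any enzyme. By edgeR 0 of 9 members were called in the membrane fraction, where 1.26% of all features were, and 0 of 9 in the cytosol, where 0.85% were. In both fractions 0 members had an unadjusted p under 0.05, and DESeq2 called 0. GPI had 2101 and 2015 CPM in UFM1-KO membrane footprints, against 1974 and 2058 CPM in WT, a log2 change of 0.03 with a 95% interval of −0.341 to 0.4. In the cytosol it had 1741 and 1996 CPM in UFM1-KO, against 1564 and 2065 CPM in WT. The UFM1-KO and WT values of GPI overlapped in both fractions.

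ENO1 had 8068 and 7763 CPM in UFM1-KO membrane footprints, against 6796 and 6608 CPM in WT, and 7770 and 7276 CPM in UFM1-KO cytosol footprints, against 6282 and 6431 CPM in WT. Both UFM1-KO libraries were above both WT libraries in each fraction. The log2 change was 0.24 in both fractions, with edgeR adjusted p-values of 0.616 and 0.581. In the membrane fraction 4 of 9 members lay above WT without overlap, as did 25.3% of all features. There 1 member, LDHA, lay below, as did 19.4% of all features. In the cytosol 1 of 9 lay above (17.9% of all features) and 1, HK2, below (18.7%). PGK1 had 1111 and 1138 CPM in UFM1-KO membrane footprints, against 1026 and 1067 CPM in WT. Member log2 changes ran from −0.29 for LDHA to 0.24 for ENO1 in the membrane fraction and from −0.42 for HK2 to 0.24 for ENO1 in the cytosol.

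The direct comparison of the knockouts tested whether they differed. It shares its UFM1-KO and UFSP2-KO libraries with the comparisons against WT. In the membrane fraction 4 of 9 members were called higher in UFM1-KO, where 11.2% of all features were called higher. They were GPI with a log2 difference of 1.31 (SE 0.184, edgeR adjusted p = 1.09e-05), PGK1 with 0.95 (SE 0.189, edgeR adjusted p = 0.0007), ENO1 with 0.92 (SE 0.153, edgeR adjusted p = 9.23e-05) and LDHB with 0.64 (SE 0.220, edgeR adjusted p = 0.0389). The first 3 calls held under all 11 alternatives. LDHB had 2077 and 2313 CPM in UFM1-KO membrane footprints, against 1224 and 1599 CPM in UFSP2-KO, without overlap, and its call was lost in DESeq2 and without any 1 of the 4 libraries.

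In the cytosol 3 of 9 members were called higher in UFM1-KO than in UFSP2-KO, where 5.83% of all features were. GPI differed by 1.11 on the log2 scale (SE 0.184, edgeR adjusted p = 0.000213), ENO1 by 0.96 (SE 0.153, edgeR adjusted p = 0.000132) and PGK1 by 0.86 (SE 0.190, edgeR adjusted p = 0.00338). All 3 calls held under the 11 alternatives. LDHB had 1810 and 2585 CPM in UFM1-KO cytosol footprints, against 1167 and 1708 CPM in UFSP2-KO, and was not called (edgeR adjusted p = 0.0713), while 5 of 11 alternatives called it, with adjusted p-values over all 11 up to 0.52.

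Whole-cell mRNA of GPI was also lower in UFSP2-KO. It had 587.4 and 481.6 CPM in UFSP2-KO, against 806.4 and 911.4 CPM in WT, a log2 change of −0.68 (SE 0.193, edgeR adjusted p = 0.0422). The groups did not overlap. It was 1 of 10 members called lower, where 4.8% of all features were, and no other member was called in either direction. The GPI call was lost with RLE size factors, with the replicate letter as a block, and without UFSP2-KO mRNA library b, WT mRNA library a or WT mRNA library b, with adjusted p-values up to 0.274.

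ENO1 mRNA stood at 2276 and 1833 CPM in UFSP2-KO, against 2767 and 2425 CPM in WT, and PGK1 mRNA at 418.7 and 370.2 CPM in UFSP2-KO, against 540.7 and 480.3 CPM in WT. Neither pair of groups overlapped, and the log2 changes of −0.34 (SE 0.202) and −0.37 (SE 0.194) missed the threshold with edgeR adjusted p-values of 0.319 and 0.249. Both UFSP2-KO libraries were below both WT libraries for 3 of 10 members in mRNA, where this held for 28.8% of all features. Member mRNA had a median log2 change of −0.0043 in UFSP2-KO against WT, and the range ran from −0.68 for GPI to 0.29 for PGAM1.

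PKM, whose product completes glycolysis by forming pyruvate, had 1438 and 1704 CPM of mRNA in UFM1-KO, 1472 and 1137 CPM of it in UFSP2-KO, and 1482 and 1445 CPM of it in WT. The values of the lines overlapped, and neither change was called, with a log2 value of 0.10 for UFM1-KO and of −0.17 for UFSP2-KO. The isoforms of PKM share most of their sequence, so its value is not that of 1 isoform with certainty. HK2 mRNA ran from 17.4 to 23.7 CPM in UFM1-KO, from 11.2 to 21.7 CPM in UFSP2-KO and from 10.6 to 21.3 CPM in WT.

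UFM1-KO mRNA showed 0 of 10 members called by edgeR, where 1.97% of all features were called, with 0 at an unadjusted p under 0.05 and 0 by DESeq2. GPI mRNA was 1015 and 1019 CPM in UFM1-KO, above both WT libraries. Its log2 change was 0.24 (SE 0.192, edgeR adjusted p = 0.56). Both UFM1-KO libraries were above both WT libraries for 4 of 10 members and 22.6% of all features. They were below for 0 of 10 members and 26.2% of all features. Against UFSP2-KO, 2 of 10 members were called higher in UFM1-KO, where 7.93% of all features were. GPI differed by 0.93 (SE 0.194, edgeR adjusted p = 0.00427) and held under all 12 alternatives. ENO1 had 2792 and 3505 CPM in UFM1-KO, against 2276 and 1833 CPM in UFSP2-KO, a log2 difference of 0.62 (SE 0.202, edgeR adjusted p = 0.0487), and was lost with RLE size factors, with the replicate letter as a block, in a fit of these groups alone, and without UFM1-KO mRNA library b or either UFSP2-KO mRNA library.

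The footprint change less the mRNA change was tested in 1 model over all 18 libraries, with 12619 features. For UFSP2-KO against WT edgeR called 0 of 9 members in the membrane fraction, where 0.0792% of all features were called, and 0 of 9 in the cytosol, where 0.0158% were. Unadjusted p-values were under 0.05 for 2 members among membrane footprints and for 0 among cytosol footprints, and DESeq2 called 0 in each. In the membrane fraction the difference was −0.74 for LDHB (SE 0.315), −0.64 for GPI (SE 0.264), −0.55 for PGAM1 (SE 0.277), −0.52 for PGK1 (SE 0.270) and −0.39 for ENO1 (SE 0.252), all on the log2 scale. EdgeR adjusted p-values of these 5 ran from 0.503 to 0.682.

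Differences were negative for 8 of 9 members in each fraction, HK2 being the exception in the membrane fraction and LDHA, at 0.03, in the cytosol. Their median was −0.39 in the membrane fraction, against −0.06 over all features, and −0.33 in the cytosol, against 0.01. The 95% interval of GPI in the membrane fraction, −1.18 to −0.0975, is not adjusted for the number of features, and GPI was not called. In the cytosol its difference was −0.34, with an interval of −0.877 to 0.205, which includes no difference. For UFM1-KO against WT 0 of 9 members were called in either fraction by edgeR or by DESeq2, with 0 at an unadjusted p under 0.05, and 0% of all features were called.

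Within each line, footprints per mRNA were high for the enzymes relative to all features. Each enzyme stood above a larger part of the features in the cytosol than in the membrane fraction, except HK2 in UFSP2-KO. On the log2 scale of CPM ratios, WT cytosol values ran from 1.49 for LDHB to 2.04 for GAPDH, and the median of 8652 features was −0.285. The members lay above 94.3% to 97.3% of those features. In UFM1-KO cytosol they lay above 90.3% to 97.5%, and in UFSP2-KO cytosol above 89.8% to 96.8%. The log2 values themselves were not all lower in the membrane fraction. In WT they were higher there for ENO1, GPI, LDHB and HK2, near equal for LDHA, and lower for GAPDH, PGK1, TPI1 and PGAM1. In the membrane fraction the members lay above 78% to 92% of features in UFM1-KO, above 69.3% to 92.8% in UFSP2-KO and above 75.4% to 92.8% in WT. TPI1 and PGAM1 stood lowest there in every line, at 0.93 and 1.12 in UFM1-KO, at 0.58 and 0.55 in UFSP2-KO and at 0.90 and 1.10 in WT.

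TPI1 and PGAM1, relative to all transcripts, had fewer membrane than cytosol footprints in every line. TPI1 had 1292 and 1071 CPM in UFM1-KO membrane footprints, against 1939 and 1691 CPM in the cytosol. In UFSP2-KO it had 1108 and 972.2 CPM in the membrane fraction, against 1472 and 1597 CPM in the cytosol. In WT it had 1129 and 1065 CPM in the membrane fraction, against 1677 and 1754 CPM in the cytosol. The fractions did not overlap in any line. For how many of all features this held was not counted.

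PGAM1 had 959.4 and 778.4 CPM in UFM1-KO membrane footprints, against 1287 and 1253 CPM in the cytosol. In UFSP2-KO it had 627.8 and 646 CPM in the membrane fraction, against 1026 and 1207 CPM in the cytosol. In WT it had 724.1 and 759.6 CPM in the membrane fraction, against 1035 and 1280 CPM in the cytosol. Again the membrane values were the lower ones in each line without overlap, a pattern not counted over all features.

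Called lower in the membrane fraction were 2 of 9 members in UFM1-KO, where 5.87% of all features were called lower, 2 of 9 in UFSP2-KO, where 12.2% were, and 2 of 9 in WT, where 12.2% were. TPI1 had log2 differences of −0.62 in UFM1-KO (SE 0.178, edgeR adjusted p = 0.00785), −0.56 in UFSP2-KO (SE 0.178, edgeR adjusted p = 0.0135) and −0.65 in WT (SE 0.178, edgeR adjusted p = 0.00462). PGAM1 had −0.55 in UFM1-KO (SE 0.186, edgeR adjusted p = 0.0262), −0.81 in UFSP2-KO (SE 0.188, edgeR adjusted p = 0.000876) and −0.64 in WT (SE 0.186, edgeR adjusted p = 0.00682). The PGAM1 call in UFSP2-KO held under all 11 alternatives.

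The other fraction calls depended on single libraries. Both UFM1-KO calls were lost without UFM1-KO membrane library b or cytosol library a, with edgeR adjusted p-values up to 0.115 for TPI1 and 0.243 for PGAM1. The TPI1 call in UFSP2-KO was lost without membrane library b or cytosol library b, up to an adjusted p of 0.147, and that in WT without membrane library b, at 0.0583. The PGAM1 call in WT was lost without membrane library a or cytosol library b, up to an adjusted p of 0.104.

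TPI1 and PGAM1 are the shortest members, listed at 229 and 234 codons, and among all other features the membrane to cytosol ratio ran with coding length. For 704 other features of 200 to 250 codons the median log2 difference was −0.142 in UFM1-KO, −0.393 in UFSP2-KO and −0.371 in WT, and 7.67%, 21.7% and 21.9% of them were called lower. TPI1 and PGAM1 were below the median of that bin in all 3 lines. Leaving out features over 2-fold enriched in the membrane fraction, the medians of that bin were −0.327, −0.598 and −0.554. That cut is made on the same ratio, so it lowers a median by construction. TPI1 was above the lowered median in UFSP2-KO and below it in UFM1-KO and WT, and PGAM1 was below it in all 3 lines. Over all other features, the WT median was −0.603 under 150 codons and 0.413 from 1000 codons upward. GAPDH, at 315 codons, had log2 differences of −0.25, −0.32 and −0.36 in UFM1-KO, UFSP2-KO and WT, against medians of −0.11, −0.202 and −0.266 for other features of 300 to 350 codons. GAPDH was below these medians in all 3 lines. Without the features over 2-fold enriched in the membrane fraction, the medians were −0.28, −0.372 and −0.404. The values of GAPDH were above those, which the cut on the ratio had lowered by construction. The part of coding length in the TPI1 and PGAM1 differences was not tested, and this comparison with length was added after their values were seen.

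**Figure D3:**
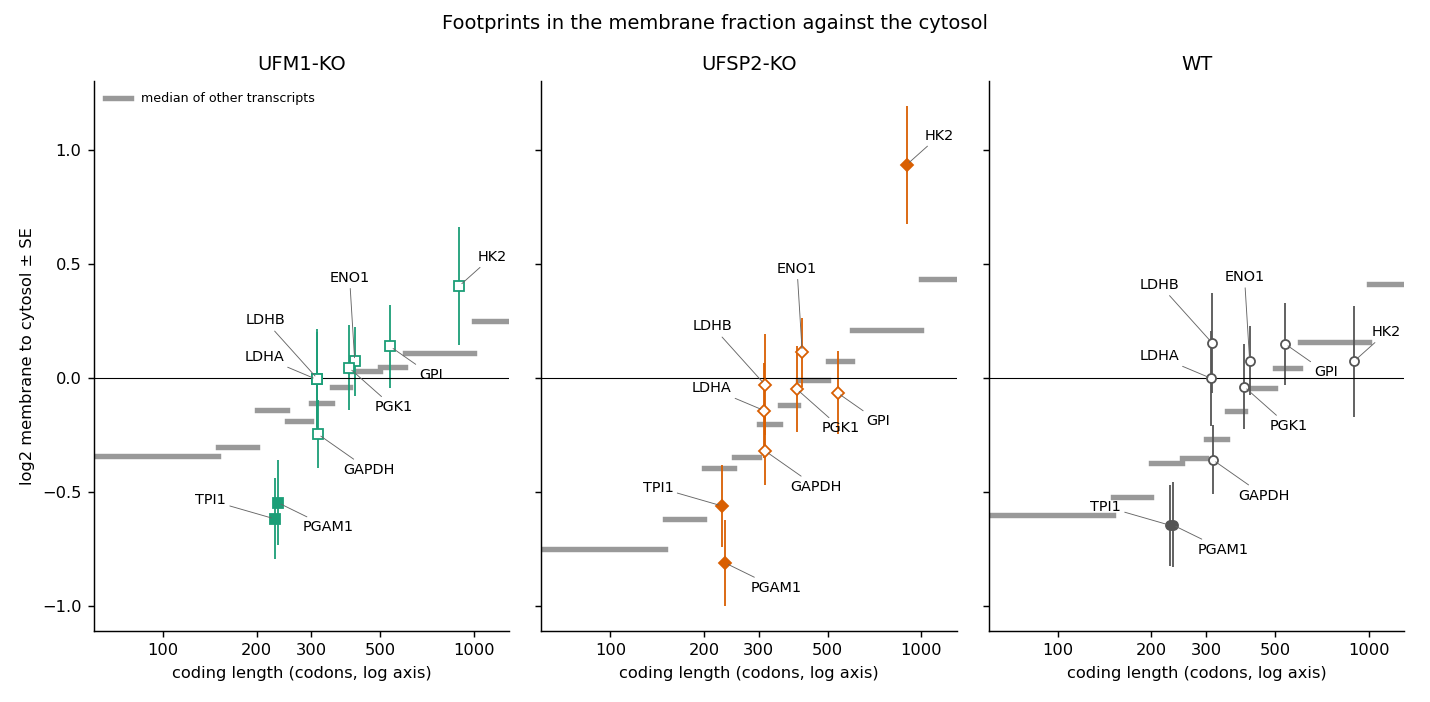
Log2 ratio of membrane to cytosol footprints of 9 enzymes against coding length in codons (log axis), in UFM1-KO, UFSP2-KO and WT, with bars of 1 standard error. Grey segments are medians of all other features in bins of length, clipped at the edges of the plot, and filled symbols passed edgeR's adjusted p under 0.05. TPI1 and PGAM1 sit at the lower left in each panel, and HK2 is filled and high in UFSP2-KO.

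HK2, the longest member at 897 codons, was called higher in the membrane fraction in UFSP2-KO, 1 of 9 members where 24.8% of all features were called higher. Its 39.8 and 50.5 CPM in the membrane fraction, against 19.5 and 26.1 CPM in the cytosol, gave a log2 difference of 0.94 (SE 0.258, edgeR adjusted p = 0.00463), lost without UFSP2-KO membrane library b at an adjusted p of 0.0945. It was 0.40 in UFM1-KO (SE 0.260) and 0.07 in WT (SE 0.243), neither called. Other features of 600 to 1000 codons had a median of 0.209 in UFSP2-KO.

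Whether a knockout moved the membrane to cytosol ratio of an enzyme was tested directly. For UFM1-KO against WT edgeR called 0 of 9 members and for UFSP2-KO against WT 0 of 9, where 0.00904% of all features were called in each test. Unadjusted p-values were under 0.05 for 0 members of the UFM1-KO test and 1 of the UFSP2-KO test, and DESeq2 called 0 in each. The 1 member was HK2, whose ratio changed by 0.86 on the log2 scale in UFSP2-KO (SE 0.355, unadjusted p = 0.0224 and adjusted p = 1 by edgeR). For GPI the change of the ratio was −0.22 in UFSP2-KO, with a 95% interval of −0.743 to 0.312, and for ENO1 0.04, with an interval of −0.404 to 0.478.

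The lactate dehydrogenase subunits LDHA and LDHB differed in their proportions between the lines. Per codon, LDHA made up 30.2% and 25.7% of LDHA plus LDHB in UFM1-KO membrane footprints, 41.8% and 38.6% in UFSP2-KO and 32.2% and 32.7% in WT. In cytosol footprints it made up 29.6% and 26.8% in UFM1-KO, against 42.8% and 41.3% in UFSP2-KO and 35.0% and 34.8% in WT. The UFSP2-KO libraries were the highest and the UFM1-KO libraries the lowest in both fractions, with no overlap between lines.

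In mRNA the LDHA share was 24.4% and 20.9% in UFM1-KO, against 28.9% and 27.6% in UFSP2-KO and 27.7% and 31.2% in WT, and UFSP2-KO overlapped WT there. The subunit ratio was chosen after its values were seen, and no test was run on it.

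**Figure D4:**
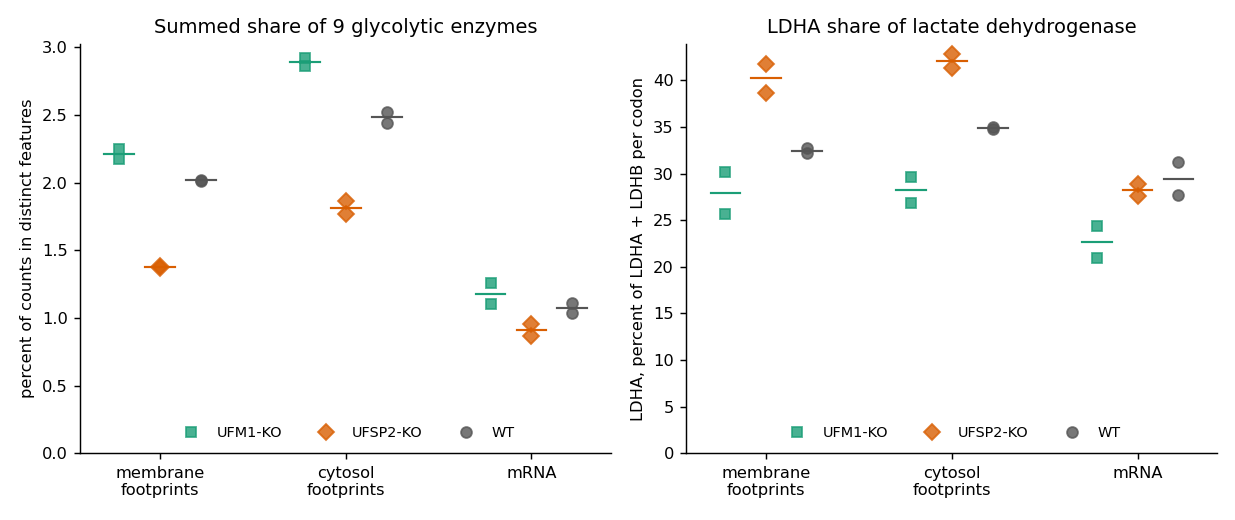
Left, percent of the counts in distinct features taken by 9 glycolytic enzymes together, and right, LDHA as a percent of LDHA plus LDHB per codon, in membrane footprints, cytosol footprints and mRNA. Symbols are libraries and bars are means of 2, for UFM1-KO, UFSP2-KO and WT from left to right. UFSP2-KO has the lowest summed share in all 3 assays, without TMM scaling, and the highest LDHA share in both footprint fractions. In TMM-scaled CPM its summed mRNA overlaps WT.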

How the data were processed

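Ribosome footprints of membrane and cytosol fractions and mRNA of whole cells were sequenced from UFM1-KO, UFSP2-KO and WT HEK293 cells. The authors deposited raw counts, whole numbers per versioned Ensembl transcript, beside a length in codons. Per the submitters' processing notes, alignment used TopHat2 2.1.1 and the GRCh38 build. How reads were counted, and on which annotation release, is not given in the sources used here. Per the labels' protocols, footprints were made with RNase I, the membrane fraction came from lysing, with Triton, what the cytosolic step had pelleted, and mRNA libraries used a stranded kit after ribosomal RNA was removed.

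Entries with identical counts in all libraries of an assay were merged. For mRNA the 25605 transcripts matched to the footprint tables by ID and length were used, with PKM added. Tests were edgeR 4.0.16 quasi-likelihood tests on the counts, two-sided, in R 4.3.3. Low features were removed by filterByExpr (minimum count 10), libraries were scaled by TMM, and each group had 1 coefficient. The models covered 12 footprint libraries, 6 mRNA libraries or all 18. P-values were adjusted over all features tested (Benjamini-Hochberg, threshold 0.05). Standard errors were derived from the F statistic. The scripts were tested on simulated data. Alternatives were RLE factors or library size alone, no filter on low counts, DESeq2 1.42.0, only the groups compared, unmerged entries, the replicate letter as a block, and each library left out. Every member present was named. Members, lists and tests were chosen with earlier results of these data known. A list of further glycolysis genes and of fraction markers by symbol was not used, because no table used here pairs transcript IDs with symbols.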

Additional observations from a re-analysis of the deposited data

Results flagged for a closer look

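Differences between the knockouts passed the test of the difference itself, edgeR's quasi-likelihood test of UFM1-KO against UFSP2-KO with Benjamini-Hochberg adjustment. In membrane footprints the log2 difference was 1.31 for GPI, 0.95 for PGK1, 0.92 for ENO1 and 0.64 for LDHB. In cytosol footprints it was 1.11 for GPI, 0.96 for ENO1 and 0.86 for PGK1. In mRNA it was 0.93 for GPI and 0.62 for ENO1. Both UFM1-KO libraries were above both UFSP2-KO libraries in each of these 9 cases, which were picked by a test on the same libraries. Over all features this held for 33.8% in membrane footprints, 25.3% in cytosol footprints and 29.7% in mRNA. No group held more than 2 libraries, so no library was tested as standing apart within its group.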

How the results depend on the processing

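No named value reversed its direction where it was called. Of the counts of members called, 203 equalled the main count or stayed within 1.5 times it, while 21 moved. The 203 include every comparison with 0 members called in the main fit, where all alternatives also gave 0. They are thus no measure of how stable the calls were. Parentheses below give the share of all features called, in either direction, in the main fit and then under the setting named. In a fit of only the groups compared, UFSP2-KO against WT membrane footprints gave 5 members (11.1%, 20.5%), adding GAPDH and LDHB. UFM1-KO against UFSP2-KO mRNA gave 1 in that fit (16%, 13.4%). UFM1-KO against UFSP2-KO cytosol footprints gave 5 members with library size alone (12%, 13.1%). With RLE factors UFSP2-KO against WT mRNA gave 0 members (7.19%, 7.3%) and UFM1-KO against UFSP2-KO mRNA gave 1 (16%, 16.2%). The causes were not tested. With only letters a and b per group, the data could not establish a pairing, and the labels give none. Differences a less b correlated between lines at 0.153 to 0.158 in membrane footprints, 0.203 to 0.314 in cytosol footprints and −0.686 to 0.0586 in mRNA, and at 0.0456 to 0.206 across fractions. With the letter as a replicate block, UFM1-KO against UFSP2-KO cytosol footprints gave 5 members (12%, 15.8%), adding GAPDH and LDHB. UFM1-KO against UFSP2-KO membrane footprints gave 6 (21.4%, 27.3%), adding GAPDH and PGAM1. UFSP2-KO against WT membrane footprints gave 4 (11.1%, 16.4%), adding LDHB. Membrane against cytosol gave 4 in UFSP2-KO (36.9%, 40.1%) and 3 in WT (37.5%, 42.1%), adding GAPDH in each. UFSP2-KO against WT mRNA gave 0 (7.19%, 6.85%) and UFM1-KO against UFSP2-KO mRNA gave 1 (16%, 13.7%). With the letters of UFSP2-KO mRNA crossed, an alternative added after seeing the data, these mRNA comparisons gave 1 (7.19%, 15.8%) and 2 (16%, 25.6%).

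Leaving out 1 library gave 0 to 2 members for membrane against cytosol in UFM1-KO, 1 to 3 in UFSP2-KO and 1 to 2 in WT. It gave 1 to 3 for UFSP2-KO against WT membrane footprints, 0 to 1 for UFSP2-KO against WT mRNA and 1 to 2 for UFM1-KO against UFSP2-KO mRNA. The number of calls over all features also changed in these fits. A left-out library leaves 1 in its group, which is then assumed to vary like the other groups. Library size alone moved the median of all features from 0.0189 to −0.269 for membrane against cytosol in UFM1-KO, and the share of calls that were higher from 79.7% to 55.2%, from 67.1% to 54.8% in UFSP2-KO and from 67.5% to 56.5% in WT. It moved that share from 48.5% to 64.9% for UFM1-KO against UFSP2-KO cytosol footprints and from 33.2% to 15.4% for UFSP2-KO against WT mRNA. RLE factors moved it from 37.3% to 47.8% for UFSP2-KO against WT cytosol footprints. The 2 libraries per group limit every test, and HK2 counts of 22 to 233 limit its footprint values.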

Other observations

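LDHB footprints were higher in library b than in library a in 6 of 6 footprint groups, by 0.155 to 0.571 on the log2 scale of CPM. LDHA was higher in b in 5 of 6 footprint groups, and lower in b in 3 of 3 mRNA groups. GAPDH was higher in b in 4 of 6 footprint groups. These patterns were noticed after the values were seen and were not tested.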
